A study of Homo sapiens with 8 samples.

Results

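Divergent-transcript genes are long noncoding genes that start beside a coding gene and are transcribed away from it on the other strand; the gene nomenclature names them after that coding gene with the ending -DT. The table of gene expression lists 586 of them. Of these, 95 were at 0 in every library, 351 had values above 0 but averaged under 1 TPM (the usual unit of RNAseq abundance, corrected for transcript length and expressed as a share of a library scaled to 1000000), and 140 averaged 1 TPM or more and are described here. These 140 -DT genes are among 14478 genes of all kinds that reached the same level, of 61906 listed. RNAseq was performed on U251 cells, an established human glioblastoma line labelled wild type, grown in DMEM with FBS. The vehicle group comprised 4 libraries from cultures given DMSO, and the LLY-283 group comprised 4 libraries from cultures given 100 nM LLY-283 for 24 h. LLY-283 blocks PRMT5, a methyltransferase that adds symmetric dimethyl marks to arginines of histones, spliceosomal proteins and other targets. The libraries are labelled as biological replicates of 1 line, RNA was captured by its poly(A) tail, and the comparison asked which transcripts differ after PRMT5 inhibition.

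Most active mammalian promoters are transcribed in both directions. In the direction of the coding gene, elongation and splicing give a stable mRNA. In the other direction most transcripts end soon after they start, and the nuclear exosome degrades them. A minority is polyadenylated and stable enough to be annotated as a gene, often but not always as a spliced transcript, and the -DT genes are of this kind. Recognition of splice sites by the U1 small nuclear ribonucleoprotein is known to protect young transcripts from early cleavage and polyadenylation, and upstream transcripts tend to hold few such sites and many polyadenylation signals.

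All 140 genes are long noncoding genes in GENCODE release 44, all lie on the opposite strand from the coding gene in their name (the partner), and in 123 pairs the annotated start sites point apart and lie within 1000 bases of each other. The starts overlap in 7 pairs and are over 1000 bases apart in 10. Among these 10 are CD44-DT (1139 bases), GARS1-DT (32053 bases) and PRKACB-DT (66310 bases), which are pairs by name. The median distance over all members is 156.5 bases. The members have 1 to 15 exons (median 3) in a mature transcript of 187 to 8044 bases (median 1412). RefSeq start windows of GRCh38.p14, 250 bases before and 50 bases after each start, were matched by symbol, chromosome and strand for 107 of the 140 genes. The windows of 4 genes are printed because the results turn on them: SRP14-DT had 1 of the 2 largest decreases, TMEM161B-DT and RAB30-DT are highly expressed members that fell, and TBC1D22A-DT is the member whose ratio to its partner rose. The RefSeq starts of SRP14-DT (chr15:40039061-40039360, plus strand), TMEM161B-DT (chr5:88268766-88269065, plus strand), RAB30-DT (chr11:83071816-83072115, plus strand) and TBC1D22A-DT (chr22:46762479-46762778, minus strand) lie 47, 133, 0 and 36 bases from the GENCODE starts. Each window is written 5′ to 3′ along the -DT transcript, and capitals mark every match, on either strand, to GGGCGG (the GC box of Sp factors), CCAAT (the site of NF-Y), CCGGAAG (an ETS site), TATAAA (the TATA box) or the palindromic site of NRF1.
SRP14-DT: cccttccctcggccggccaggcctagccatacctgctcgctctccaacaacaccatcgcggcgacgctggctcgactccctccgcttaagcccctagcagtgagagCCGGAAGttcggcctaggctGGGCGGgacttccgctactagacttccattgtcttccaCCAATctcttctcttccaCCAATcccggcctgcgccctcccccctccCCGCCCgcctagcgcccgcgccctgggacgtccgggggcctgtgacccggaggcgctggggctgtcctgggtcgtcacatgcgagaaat
TMEM161B-DT: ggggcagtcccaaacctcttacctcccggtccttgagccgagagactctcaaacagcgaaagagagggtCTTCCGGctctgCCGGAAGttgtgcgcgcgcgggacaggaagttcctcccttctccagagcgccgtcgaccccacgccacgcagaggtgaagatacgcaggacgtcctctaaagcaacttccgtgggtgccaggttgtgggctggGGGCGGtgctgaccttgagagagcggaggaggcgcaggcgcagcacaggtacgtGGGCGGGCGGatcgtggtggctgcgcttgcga
RAB30-DT: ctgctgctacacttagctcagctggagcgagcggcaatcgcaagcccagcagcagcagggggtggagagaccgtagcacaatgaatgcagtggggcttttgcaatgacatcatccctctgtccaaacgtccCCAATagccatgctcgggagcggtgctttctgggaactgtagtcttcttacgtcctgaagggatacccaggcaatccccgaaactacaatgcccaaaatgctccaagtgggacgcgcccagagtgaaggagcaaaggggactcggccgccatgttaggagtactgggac
TBC1D22A-DT: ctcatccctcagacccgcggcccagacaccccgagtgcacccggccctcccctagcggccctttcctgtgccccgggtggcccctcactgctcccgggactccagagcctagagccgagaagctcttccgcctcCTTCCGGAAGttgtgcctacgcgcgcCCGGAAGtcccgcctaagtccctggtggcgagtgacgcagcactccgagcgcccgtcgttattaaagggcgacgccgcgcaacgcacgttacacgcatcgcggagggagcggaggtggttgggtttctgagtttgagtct
The start of the coding partner, read from the other strand, falls inside each of these 4 windows, at base 121 for SRP14, 80 for TMEM161B, 82 for RAB30 and 129 for TBC1D22A. The SRP14-DT window holds 2 GC boxes, 2 CCAAT boxes and 1 ETS site, the TMEM161B-DT window 3 GC boxes and 2 ETS sites, the RAB30-DT window 1 CCAAT box and the TBC1D22A-DT window 3 ETS sites. Several of these matches overlap one another. Of 4 further windows searched and not printed, the MAGEA6-DT window holds the partner's start and 1 CCAAT box. The windows of CD44-DT, GARS1-DT and CNN3-DT do not hold the partner's start or any of these letters, and those of GARS1-DT and CNN3-DT lie 14954 and 550 bases from the GENCODE start. GC boxes were found in 70.1% of the 107 -DT windows and in 45.0% of all 35116 RefSeq windows. The shares were 41.1% and 34.6% for CCAAT, 25.2% and 10.3% for CCGGAAG, 4.67% and 1.24% for the NRF1 site, and 3.74% and 11.5% for TATAAA. These are matches to letters and not evidence of binding.

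In the first 1000 bases downstream of the GENCODE start (GRCh38, transcribed strand), the polyadenylation signal AATAAA was present in 35.7% of the 140 -DT genes and in 13.7% of their 139 tested partners. The shares among long noncoding and coding genes tested were 38.9% and 17.9%. The splice donor letters GGTAAG were present in 22.1% of the -DT genes and 20.9% of the partners, and in 23.9% and 23.6% of the long noncoding and coding genes tested. The median GC content of these bases was 52.4% for the -DT genes and 60.0% for the partners, and 52.2% and 59.9% for all long noncoding and all coding genes tested. The -DT genes called lower (adjusted p under 0.05 and a decrease above 1.5-fold after LLY-283) and those not called held AATAAA in 36.8% of 38 and 35.3% of 102 genes, and GGTAAG in 31.6% and 18.6%. The GGTAAG shares are 12 and 19 genes, and their difference was not tested. The 38 include 7 genes that averaged under 1 TPM with LLY-283 and reached that level only through the vehicle group.

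Across the series, the libraries summed to 1000000 or 1000001 TPM, so depth is not known and counting errors cannot be given. Between 24386 and 24757 genes were above 0 in vehicle libraries and between 24042 and 24315 in LLY-283 libraries. The glioma markers VIM, CD44, GFAP, NES, SOX2 and SOX9 ranged in their means from 94.5 to 4211 TPM, S100B averaged 3.77 TPM and OLIG2 was near 0. Of the markers of other cells, PTPRC, PECAM1, EPCAM, CDH1 and RBFOX3 were near 0, CD68 averaged 1.53 TPM (up to 2.93 TPM in 1 library) and SYT1 4.95 TPM (up to 5.63 TPM). PRMT5 itself was at 92.9 to 106 TPM. LLY-283 replicate 4 stood apart, with 7.19% of its TPM from the mitochondrial genome against 10.15% to 11% in the other 7 libraries.

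Expression of the -DT genes was lower after LLY-283, and none was called higher. The summed expression of the 140 genes was 686.8, 665.5, 680.0 and 685.1 TPM in the vehicle libraries and 515.4, 499.5, 512.0 and 485.1 TPM in the LLY-283 libraries, and the groups did not overlap. These sums include 16 members that reached 1 TPM only through the vehicle mean. With limma on log2(TPM + 0.1), fitted across all 14478 genes, 38 of the 140 genes were called lower (27.1%, against 3.48% of all genes tested) and 0 were called higher (against 0.394%). A call required a Benjamini-Hochberg adjusted p under 0.05 and a change above 1.5-fold. Without the fold threshold, 53 -DT genes were lower and 1 was higher, where 17.6% and 8.61% of all genes were. At an unadjusted p under 0.05, 72 were lower and 1 higher, where 25.4% and 13.2% of all genes were. The 4 LLY-283 values lay wholly below the 4 vehicle values for 56 genes (40.0%, against 19.6% of all genes) and wholly above them for 1 gene (against 9.63%). The fitted change was negative for 126 of the 140 genes. The median of the 140 log2 fold changes was -0.38, and that of all genes tested was -0.05. Over the 124 members that averaged 1 TPM or more in both groups, the median was -0.32. Under quantile normalization 21 genes were called lower (15% of the members, against 1.80% of all genes) with a median of -0.19, and with a pseudocount of 1 TPM 25 were (17.9%, against 2.16%). In these bulk libraries, less RNA in every cell and fewer cells with the RNA cannot be told apart.

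The shift was present in each treated library. Relative to each gene's vehicle mean, the median log2 value of the 140 genes was -0.27, -0.30, -0.35 and -0.49 in LLY-283 replicates 1 to 4. In the vehicle libraries it lay between -0.04 and 0.01. The 140 genes include 16 that reached 1 TPM only through the vehicle mean, so these medians are given as a description. The largest shift was in replicate 4, the library with the low mitochondrial share, whose part in the result was not tested. Without that library, 31 genes were called lower (22.1%, against 3.00% of all genes) and 0 higher. In the 8 fits that each left out 1 library, 27 to 35 genes were called lower (19.3% to 25%, against 2.96% to 3.56% of all genes).

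**Figure D1:**
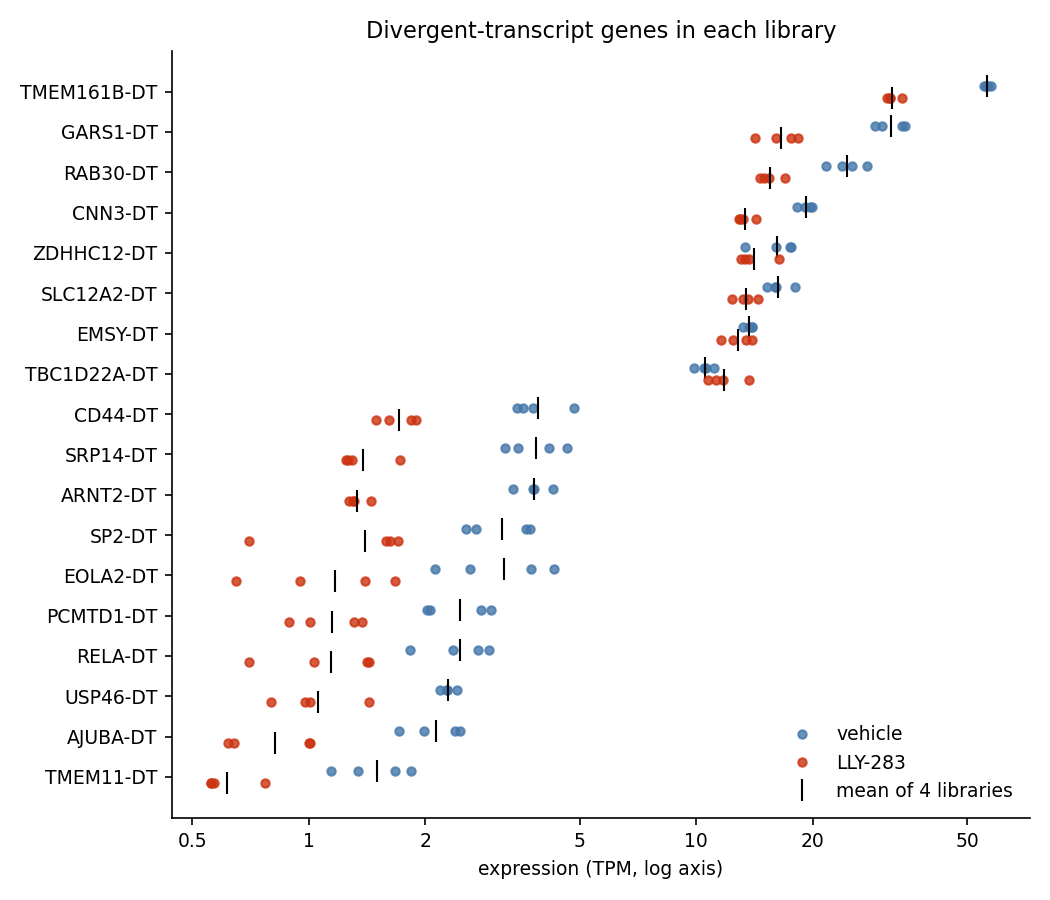
Expression in TPM (log axis) of the 10 -DT genes with the largest decreases among calls whose groups do not overlap and the 8 with the highest mean, 1 point per library, with vehicle in blue, LLY-283 in red and a bar at the mean of 4 libraries. The groups of the first 10 are apart because they were chosen so, those of TMEM161B-DT, GARS1-DT, RAB30-DT, CNN3-DT and SLC12A2-DT are apart as well, and those of ZDHHC12-DT, EMSY-DT and TBC1D22A-DT overlap.

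Level entered the choice of members, since a gene had to average 1 TPM over all 8 libraries. The means ran from 1.01 to 44.2 TPM with a median of 2.32 TPM. Close inside the threshold were PRKACB-DT (1.01 TPM) and SEPTIN7-DT (1.01 TPM), and just outside it were ZNF426-DT (0.999 TPM), CHD1-DT (0.995 TPM) and ZKSCAN2-DT (0.995 TPM). The vehicle mean alone reached 1 TPM for 16 members and the LLY-283 mean alone for 0. The remaining 124 reached it in both groups, and 31 of the 38 genes called lower were among these. The other 7 called genes, AJUBA-DT, TMEM11-DT, KDM2B-DT, ZNF747-DT, ZNF691-DT, SEPTIN7-DT and MIF4GD-DT, averaged under 1 TPM with LLY-283 and so met the level through the vehicle group, where they are high, and their decreases are given as a description. By level, 15 of 58 genes under 2 TPM, 13 of 47 genes from 2 to under 5 TPM and 10 of 35 genes from 5 TPM were called lower. The 15 include all 7 genes that met the level through the vehicle group, so the lowest range is a description only. Among all genes tested in the same ranges, 9.01%, 8.44% and 1.81% were. Among the other long noncoding genes in these ranges, 14.7%, 18.7% and 18.3% were.

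The largest decrease among genes whose groups did not overlap was that of ARNT2-DT (ENSG00000259495, chromosome 15, 80344853 to 80404214, minus strand, 5 exons, on GRCh38, as are all gene positions given). Its partner ARNT2 encodes a basic helix-loop-helix PAS transcription factor. ARNT2-DT was at 3.78, 4.26, 3.36 and 3.82 TPM with vehicle and at 1.27, 1.45, 1.31 and 1.3 TPM with LLY-283, so every treated value was well below every vehicle value. The fall was 2.72-fold (log2 fold change -1.44, 95% interval -1.71 to -1.18, adjusted p = 7.95e-05, limma). SRP14-DT (ENSG00000248508, chromosome 15, 40039242 to 40080614, plus strand, 5 exons) lies beside the gene for a subunit of the signal recognition particle, which targets nascent secretory proteins to the endoplasmic reticulum. It was at 3.47, 4.64, 3.20 and 4.16 TPM with vehicle and at 1.25, 1.72, 1.26 and 1.29 TPM with LLY-283. The groups were apart, and the fall was 2.67-fold (log2 fold change -1.42, 95% interval -1.78 to -1.06, adjusted p = 0.000391, limma).

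CD44-DT (ENSG00000255521, chromosome 11, 35132655 to 35138951, minus strand, 3 exons) is transcribed away from the gene for the hyaluronan receptor CD44, a surface protein of mesenchymal and stem-like glioma cells. CD44-DT was at 4.83, 3.57, 3.80 and 3.44 TPM with vehicle and at 1.89, 1.49, 1.61 and 1.83 TPM with LLY-283. The groups did not overlap, and the fall was 2.21-fold (log2 fold change -1.15, SE 0.140, adjusted p = 0.000535, limma). RELA-DT (ENSG00000285533, chromosome 11, 65662988 to 65671718, plus strand, 2 exons) lies beside the gene for the NF-kB subunit p65. It was at 1.82, 2.73, 2.91 and 2.36 TPM with vehicle and at 0.70, 1.41, 1.43 and 1.03 TPM with LLY-283, again without overlap (log2 fold change -1.07, SE 0.245, adjusted p = 0.0119, limma). AJUBA-DT, beside the gene for a LIM-domain scaffold protein of cell junctions, was at 2.38, 1.71, 1.98 and 2.45 TPM with vehicle and at 0.64, 0.62, 1.00 and 1.01 TPM with LLY-283. The groups were apart (log2 fold change -1.30, adjusted p = 0.00303, limma), but AJUBA-DT reached the 1 TPM level only through its vehicle mean of 2.13 TPM, against 0.818 TPM with LLY-283.

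EOLA2-DT, SP2-DT, TMEM11-DT, USP46-DT and PCMTD1-DT complete the 10 largest decreases with groups apart. EOLA2-DT (chromosome X) was at 4.30, 2.12, 2.60 and 3.74 TPM with vehicle and at 1.67, 0.95, 1.40 and 0.65 TPM with LLY-283 (log2 fold change -1.40, SE 0.307, adjusted p = 0.00977, limma). EOLA1 and EOLA2 are closely related neighbouring genes, and reads may be divided between EOLA2-DT and EOLA1-DT, so their separate values are uncertain. Shared reads were not measured. SP2-DT, beside the gene for the transcription factor SP2, was at 3.64, 2.55, 2.7 and 3.72 TPM with vehicle and at 1.7, 1.58, 1.62 and 0.70 TPM with LLY-283 (log2 fold change -1.17, adjusted p = 0.0123, limma). TMEM11-DT, beside a gene for a mitochondrial membrane protein, was at 1.14, 1.84, 1.34 and 1.67 TPM with vehicle and at 0.56, 0.77, 0.56 and 0.57 TPM with LLY-283 (log2 fold change -1.15, adjusted p = 0.00709, limma), and it too reached the 1 TPM level only through the vehicle group. USP46-DT, beside a deubiquitinase gene, had tight vehicle values of 2.41, 2.27, 2.18 and 2.27 TPM and LLY-283 values of 0.80, 0.98, 1.43 and 1.01 TPM. Its log2 fold change was -1.07 (adjusted p = 0.00311, limma). PCMTD1-DT was at 2.78, 2.05, 2.02 and 2.96 TPM with vehicle and at 1.31, 1.01, 0.89 and 1.37 TPM with LLY-283, a log2 fold change of -1.03 (adjusted p = 0.00535, limma).

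The other 28 genes called lower had log2 fold changes from -1.06 to -0.59. They are CAMSAP1-DT, CENATAC-DT, KDM2B-DT, GPR155-DT, MTA1-DT, ARHGAP11B-DT, GARS1-DT, ZFAND2A-DT, ZNF747-DT, ZNF691-DT, EOLA1-DT, GMDS-DT, TMEM161B-DT, SEPTIN7-DT, NCK1-DT, MVP-DT, ANKRD42-DT, PGLS-DT, DPP3-DT, GATD1-DT, EIF2AK3-DT, MAP3K2-DT, MAP3K9-DT, MIF4GD-DT, RAB30-DT, RBM33-DT, OSER1-DT and EDIL3-DT. The groups overlapped in 5 of the 38 genes called, CAMSAP1-DT, GPR155-DT, EOLA1-DT, ANKRD42-DT and PGLS-DT. SEPTIN7-DT lay close to both thresholds, with 1.46, 1.08, 1.71 and 1.03 TPM with vehicle and 0.85, 0.58, 0.75 and 0.64 TPM with LLY-283 (log2 fold change -0.80, adjusted p = 0.0385, limma). Its adjusted p ranged from 0.0272 to 0.141 over the alternative settings and missed the threshold without LLY-283 replicate 2 or 3 or vehicle replicate 1 or 3 (adjusted p from 0.0556 to 0.0759). A further 15 genes had an adjusted p under 0.05 with a decrease of less than 1.5-fold, among them NUP50-DT, UBL7-DT, CNN3-DT, EIF3J-DT and SLC12A2-DT. The test was not passed by 86 of the 140 genes.

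The fall was also seen in the -DT genes with the highest expression. TMEM161B-DT (ENSG00000247828, chromosome 5, 88268864 to 88439337, plus strand, 4 exons) had the highest mean, 44.2 TPM. It was at 56.77, 55.97, 57.55 and 55.27 TPM with vehicle and at 31.11, 34.05, 31.53 and 31.58 TPM with LLY-283. The gap between the groups was many times the spread within them, and the fall was 1.76-fold (log2 fold change -0.81, SE 0.0370, adjusted p = 4.44e-06, limma). GARS1-DT (ENSG00000196295, chromosome 7, 30516309 to 30595286, minus strand, 5 exons) overlaps the gene for glycyl-tRNA synthetase on the other strand, with annotated starts 32053 bases apart. It was at 28.99, 30.07, 34.47 and 34.04 TPM with vehicle and at 17.57, 18.33, 16.08 and 14.16 TPM with LLY-283, a fall of 1.93-fold without overlap (log2 fold change -0.95, SE 0.0878, adjusted p = 0.000142, limma). RAB30-DT (ENSG00000246067, chromosome 11, 83072052 to 83107789, plus strand, 4 exons), beside the gene for a small GTPase of the Golgi, was at 27.66, 23.83, 21.57 and 25.19 TPM with vehicle and at 14.97, 14.56, 16.94 and 15.36 TPM with LLY-283. It fell 1.58-fold (log2 fold change -0.66, SE 0.0778, adjusted p = 0.000449, limma).

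Other members of high expression moved less. CNN3-DT, beside the gene for the actin-binding protein calponin 3, was at 19.89, 18.21, 19.60 and 19.05 TPM with vehicle and at 14.25, 13.22, 12.87 and 12.98 TPM with LLY-283. Its groups were apart and its fall of 1.44-fold was just short of the fold threshold (log2 fold change -0.52, SE 0.0496, adjusted p = 0.000160, limma). SLC12A2-DT, beside the gene for the sodium, potassium and chloride cotransporter NKCC1, was at 16.06, 15.95, 15.20 and 17.96 TPM with vehicle and at 13.62, 12.38, 13.22 and 14.42 TPM with LLY-283, a fall of 1.21-fold (adjusted p = 0.0131, limma) that missed the threshold under quantile normalization (adjusted p = 0.0691). ZDHHC12-DT was at 17.50, 13.33, 16.02 and 17.60 TPM with vehicle and at 13.05, 13.39, 13.67 and 16.32 TPM with LLY-283, and the groups overlapped (log2 fold change -0.19, 95% interval -0.41 to 0.04, adjusted p = 0.202, limma). EMSY-DT, beside the gene for a BRCA2-interacting transcriptional repressor, was at 13.22, 13.96, 13.92 and 13.67 TPM with vehicle and at 11.56, 12.43, 13.42 and 13.93 TPM with LLY-283. Its log2 fold change of -0.10 had a 95% interval from -0.24 to 0.04 (adjusted p = 0.289, limma).

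Of the 14 members with positive fitted changes, MAGEA6-DT passed the adjusted p threshold and none passed the fold threshold. MAGEA6-DT (chromosome X), beside a cancer-testis antigen gene and named here after its values were seen, was at 5.99, 4.74, 5.14 and 5.08 TPM with vehicle and at 7.34, 6.76, 7.06 and 7.21 TPM with LLY-283. It rose 1.35-fold without overlap (log2 fold change 0.43, SE 0.0806, adjusted p = 0.00435, limma). Its partner MAGEA6 rose 1.24-fold, also without overlap (log2 fold change 0.31, adjusted p = 0.000459, limma). MAGEA6 has near-identical copies, so reads may be divided between them. TBC1D22A-DT (ENSG00000260708, chromosome 22, 46761893 to 46762564, minus strand, 1 exon) was at 9.89, 10.49, 10.59 and 11.08 TPM with vehicle and at 11.21, 10.70, 13.67 and 11.71 TPM with LLY-283 (log2 fold change 0.16, 95% interval -0.01 to 0.34, adjusted p = 0.155, limma). PRKACB-DT, beside the gene for a catalytic subunit of protein kinase A, was at 0.93, 0.94, 1.37 and 1.17 TPM with vehicle and at 0.93, 1.05, 0.93 and 0.76 TPM with LLY-283 (adjusted p = 0.472, limma). DHX35-DT, named here after its values were seen, was the 1 member listed at 0 in any library, with 7.19, 1.16, 0 and 0 TPM with vehicle and 1.08, 1.13, 0 and 2.00 TPM with LLY-283.

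Few of the coding partners passed the threshold. Of the 139 partners tested (APCDD1L, the partner of APCDD1L-DT, was below the level filter), 2 were called lower (1.44%, against 3.48% of all genes) and 1 was called higher (0.719%, against 0.394%). Among all coding genes tested, 1.76% were called lower and 0.257% higher, so the partners' share called lower is near that of coding genes. At an adjusted p under 0.05 alone, 18 were lower and 21 higher, where 17.6% and 8.61% of all genes were. Their median log2 fold change was 0.02. Across the 139 pairs, the changes of the -DT gene and of its partner had a Pearson correlation of 0.03 and a Spearman correlation of 0.01, given as a description across genes of the same 8 libraries. Of the 38 -DT genes called lower, 37 had a partner that stayed within 1.5-fold, as did 136 of all 139 partners, and the partners' median log2 fold change was 0.01.

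**Figure D2:**
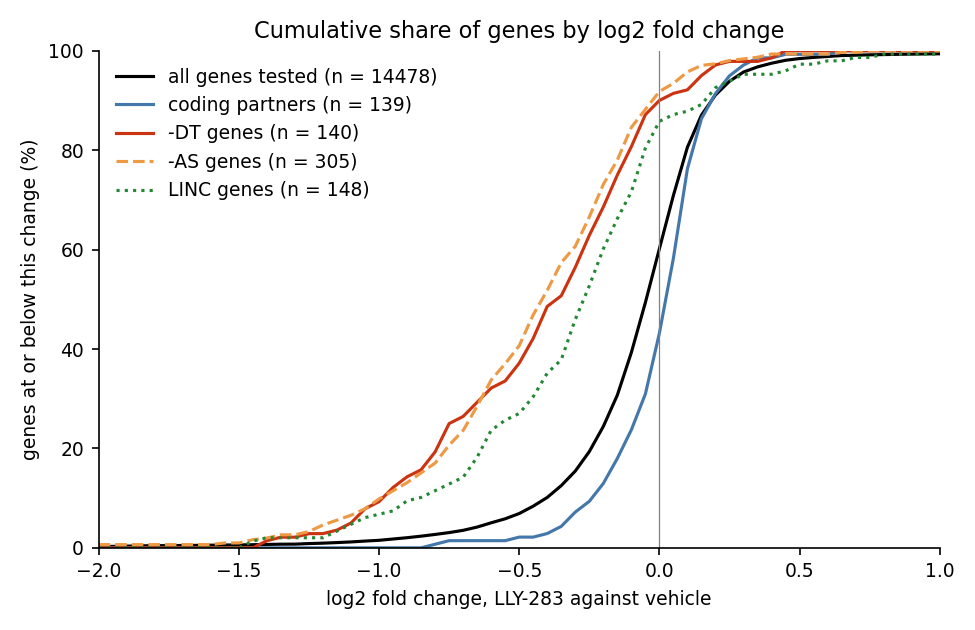
Cumulative share of genes (percent, vertical axis) at or below each log2 fold change of LLY-283 against vehicle (horizontal axis), for all genes tested, the coding partners, the -DT genes, the -AS genes and the LINC genes. The -DT curve reaches 90.0% at 0 with a median of -0.38, and the partner curve reaches 43.2% at 0 with a median of 0.02.

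The partners of the -DT genes named above show the contrast by gene. ARNT2 was at 24.7, 24.4, 26.9 and 24.1 TPM with vehicle and at 24.6, 24.2, 24.0 and 26.1 TPM with LLY-283, with a log2 fold change of -0.02 (95% interval -0.12 to 0.09, adjusted p = 0.828, limma), while its -DT gene fell 2.72-fold. SRP14 was at 386.3, 458.4, 435.4 and 429.4 TPM with vehicle and at 470.0, 492.9, 456.4 and 525.5 TPM with LLY-283, and its log2 fold change was 0.19 (adjusted p = 0.0407, limma). That small rise missed the threshold in 7 of 16 alternative settings, with an adjusted p of up to 0.0995, and among the single libraries left out these were LLY-283 replicates 1, 2 and 4 and vehicle replicates 1, 3 and 4. CD44 was at 1531, 1573, 1638 and 1561 TPM with vehicle and at 1732, 1680, 1698 and 1689 TPM with LLY-283, without overlap (log2 fold change 0.11, adjusted p = 0.0168, limma). Its adjusted p reached 0.189 under quantile normalization and missed the threshold, at up to 0.0564, without LLY-283 replicate 1 or vehicle replicate 1, 2 or 4. RELA was at 53.6, 55.0, 56.5 and 56.7 TPM with vehicle and at 60.2, 63.7, 59.8 and 60.6 TPM with LLY-283 (log2 fold change 0.14, adjusted p = 0.0146, limma). AJUBA, SP2, TMEM11 and USP46 had log2 fold changes of 0.03, 0.11, 0.07 and -0.08, and PCMTD1 one of -0.20, and none of these passed the test. EOLA2 rose from 34.17, 32.98, 34.22 and 32.38 TPM to 40.07, 41.44, 40.45 and 41.84 TPM, with a log2 fold change of 0.29 (adjusted p = 0.000431, limma).

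Among the members of high expression, TMEM161B was at 16.1, 14.4, 16.7 and 13.8 TPM with vehicle and at 15.3, 14.9, 16.5 and 12.3 TPM with LLY-283 (log2 fold change -0.05, adjusted p = 0.736, limma), so that the values overlapped. GARS1 was at 225.6, 226.2, 220.5 and 225.2 TPM with vehicle and at 239.5, 233.3, 234.9 and 246.6 TPM with LLY-283, a log2 fold change of 0.09 (adjusted p = 0.0343, limma). The rise of GARS1 missed the threshold in 8 of 16 alternative settings (adjusted p up to 0.0760), among them those without LLY-283 replicate 1 or any 1 vehicle library. CNN3 was at 787.2, 769.2, 787.3 and 758.0 TPM with vehicle and at 846.5, 845.8, 844.7 and 861.5 TPM with LLY-283, apart from one another (log2 fold change 0.13, adjusted p = 0.00347, limma), a rise that missed the threshold under quantile normalization (adjusted p = 0.0850). RAB30, in contrast, was at 2.68, 3.53, 3.91 and 2.95 TPM with vehicle and at 2.61, 2.14, 2.00 and 2.87 TPM with LLY-283, a log2 fold change of -0.43 that did not pass the test (adjusted p = 0.0779, limma). Of the other partners, SLC12A2 (0.10), EMSY (0.03), PRKACB (0.01) and SEPTIN7 (0.08) had log2 fold changes that did not pass the test, and ZDHHC12, a gene for a palmitoyltransferase, fell. ZDHHC12 was at 55.99, 59.62, 57.94 and 56.29 TPM with vehicle and at 44.10, 43.34, 47.06 and 53.87 TPM with LLY-283, without overlap (log2 fold change -0.29, adjusted p = 0.00994, limma). The ratio of ZDHHC12-DT to ZDHHC12 did not pass the test (log2 change 0.10, 95% interval -0.16 to 0.37, adjusted p = 0.516, limma).

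The largest decrease among the partners called was that of GPR155, a gene for a lysosomal membrane protein, and its -DT gene fell with it. GPR155 was at 2.24, 2.02, 1.69 and 1.74 TPM with vehicle and at 1.04, 1.03, 1.12 and 1.02 TPM with LLY-283 (log2 fold change -0.80, adjusted p = 0.00627, limma). GPR155-DT was at 3.82, 4.11, 2.92 and 2.54 TPM with vehicle and at 1.39, 2.24, 2.57 and 0.81 TPM with LLY-283, groups that overlapped (log2 fold change -0.99, adjusted p = 0.0488, limma). The call of GPR155-DT was lost in 11 of 15 alternative settings, among them all that left out 1 library except LLY-283 replicate 3, with an adjusted p of up to 0.124. The other partner called lower, ZNF594, named here after its values were seen, was at 8.62, 9.68, 9.80 and 8.47 TPM with vehicle and at 5.86, 5.52, 6.0 and 4.06 TPM with LLY-283 (log2 fold change -0.77, adjusted p = 0.00190, limma). ZNF594-DT had overlapping values and did not pass the test (log2 fold change -0.42, adjusted p = 0.0962, limma), and neither did the ratio of the 2 genes (log2 change 0.35, 95% interval -0.15 to 0.85, adjusted p = 0.258, limma). LHX1, which encodes a LIM homeobox transcription factor, was the 1 partner called higher. It was at 1.64, 1.98, 1.32 and 1.45 TPM with vehicle and at 2.49, 2.06, 2.86 and 2.44 TPM with LLY-283 (log2 fold change 0.60, adjusted p = 0.0251, limma), and its adjusted p ranged from 0.00907 to 0.0726 over the alternative settings. It missed the threshold without LLY-283 replicate 1 or 3 or vehicle replicate 3 or 4. LHX1-DT had overlapping values of 2.61, 2.62, 3.05 and 3.15 TPM and 2.72, 2.39, 2.44 and 2.66 TPM. The ratio of LHX1-DT to LHX1 was called lower (log2 change -0.75, adjusted p = 0.0325, limma), with groups apart. That call was lost in 7 of 15 alternative settings, with an adjusted p of up to 0.0891.

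To test whether a -DT gene and its partner changed unequally, the log2 ratio of the noncoding to the coding gene was formed within each library, which removes most of any single scaling factor of the library (the pseudocount of 0.1 TPM keeps a small part). The ratios of 139 -DT pairs were fitted with limma together with 241 other head-to-head pairs of a long noncoding and a coding gene, with p-values adjusted over all 380 pairs. The ratio fell in 38 of the 139 -DT pairs (27.3%, against 24.2% of all pairs) and rose in 1 (0.719%, against 0.789%). In 7 of these 38 pairs the -DT gene reached 1 TPM only through its vehicle mean, and among the 123 pairs whose -DT gene reached it in both group means, 31 ratios fell (25.2%). The share that fell is therefore close to that of all pairs, and the other pairs gave 54 lower and 2 higher ratios of 241. The LLY-283 ratios lay wholly below the vehicle ratios in 49 -DT pairs, where 33.2% of all pairs had this arrangement. The median change of the log2 ratio was -0.39 for the -DT pairs and -0.35 for the other head-to-head pairs. Of the 38 -DT genes called lower, 30 also had a ratio called lower. The 8 others, NCK1-DT, GATD1-DT, ZNF691-DT, ANKRD42-DT, PGLS-DT, MIF4GD-DT, RAB30-DT and GPR155-DT, had partners with negative changes.

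**Figure D3:**
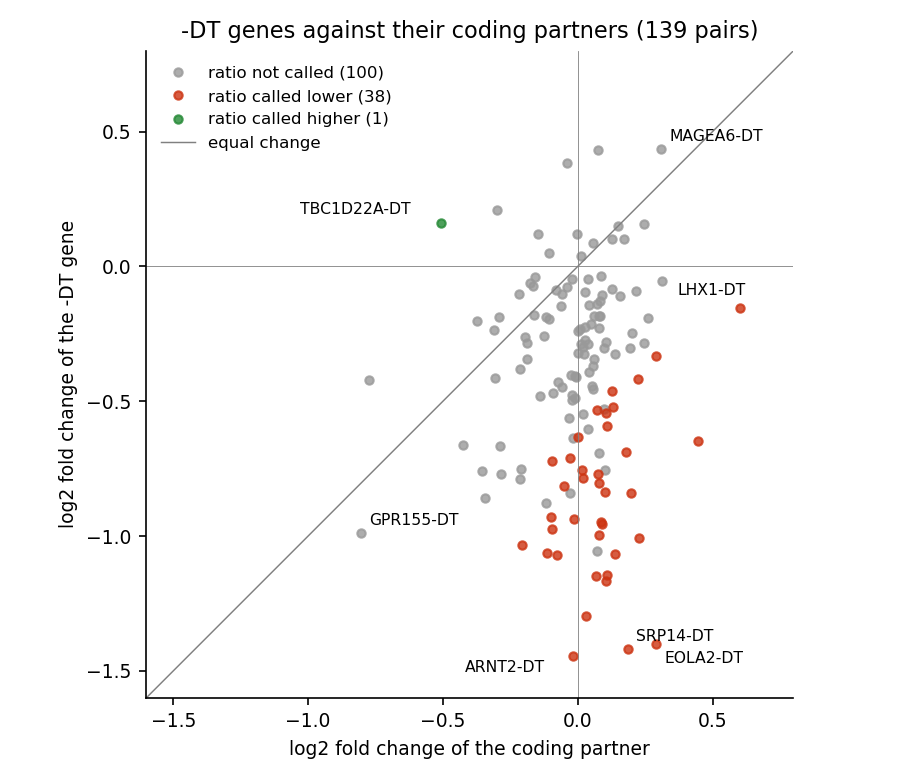
Log2 fold change of each -DT gene (vertical axis) against that of its coding partner (horizontal axis) for 139 pairs, with the diagonal of equal change and pairs coloured by the test of the ratio. The partners lie between -0.80 and 0.60 and the -DT genes between -1.44 and 0.43, and the 38 pairs with a ratio called lower lie below the diagonal.

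The 3 largest falls of the ratio were those of EOLA2-DT, SRP14-DT and ARNT2-DT. The log2 ratio of SRP14-DT to SRP14 was -6.76, -6.60, -7.04 and -6.66 with vehicle and -8.44, -8.08, -8.39 and -8.56 with LLY-283. The groups were far apart, and the ratio fell 3.05-fold (95% interval of the log2 change -1.91 to -1.31, adjusted p = 0.000193, limma). The log2 ratio of ARNT2-DT to ARNT2 was -2.67, -2.49, -2.96 and -2.62 with vehicle and -4.17, -3.97, -4.09 and -4.22 with LLY-283, a fall of 2.69-fold (adjusted p = 0.000335, limma). For EOLA2-DT, whose reads may be shared with EOLA1-DT, the ratio fell 3.23-fold (95% interval of the log2 change -2.40 to -0.98, adjusted p = 0.00319, limma). The ratios of CD44-DT, GARS1-DT, TMEM161B-DT and CNN3-DT fell by 1.25, 1.03, 0.76 and 0.65 on the log2 scale (adjusted p from 0.000297 to 0.00127, limma).

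TBC1D22A-DT was the 1 pair whose ratio rose. TBC1D22A, a gene for a protein with a Rab GTPase-activating domain, fell from 13.63, 15.02, 15.16 and 14.24 TPM to 10.13, 9.91, 9.0 and 11.90 TPM (log2 fold change -0.51, adjusted p = 0.00220, limma), while the single-exon TBC1D22A-DT did not pass the test. The log2 ratio was -0.46, -0.51, -0.51 and -0.36 with vehicle and 0.14, 0.11, 0.60 and -0.02 with LLY-283, with no overlap. It rose 1.59-fold (95% interval of the log2 change 0.33 to 1.00, adjusted p = 0.00769, limma). Without LLY-283 replicate 3 its change was 0.54, under the fold threshold, so that 0 ratios were called higher, and without LLY-283 replicate 4 there were 2. For RAB30-DT and GPR155-DT, whose partners had negative changes too, the ratio gave no call. The ratio of RAB30-DT to RAB30 did not pass the test (log2 change -0.24, 95% interval -0.74 to 0.27, adjusted p = 0.442, limma), and neither did that of GPR155-DT to GPR155 (log2 change -0.19, 95% interval -0.92 to 0.55, adjusted p = 0.667, limma).

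On the length-corrected TPM scale, the median -DT gene reached 7.85% of its partner's mean level, and the range over pairs was 0.0363% to 705.5%. In 11 pairs the noncoding gene was the more abundant. RAB30-DT stood at 705.5% of RAB30 and TMEM161B-DT at 294.7% of TMEM161B, followed by MAP3K9-DT (173.5%), GPR155-DT (171.4%), FAM151B-DT (147.8%), ZNF8-DT (136.0%), LHX1-DT (133.3%), WDR5B-DT (115.5%), ZNF747-DT (103.4%), ZNF584-DT (101%) and EMSY-DT (100.5%). Of these 11 genes, 5 were called lower (45.5%, against 27.1% of the -DT genes and 3.48% of all genes). The 5 include ZNF747-DT, which met the level only through the vehicle group, and GPR155-DT, whose call was lost in 11 of 15 alternative settings. With so few genes this share is a description. At the other end, CD44-DT was at 0.171% of CD44, SEPTIN7-DT at 0.428% of SEPTIN7 and SRP14-DT at 0.574% of SRP14.

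The fold changes were also arranged by the exon number of the canonical GENCODE 44 transcript, a feature that played no part in choosing the members. Of the 23 -DT genes with 1 exon, 1 was called lower (MIF4GD-DT, which met the level only through the vehicle group). The median log2 fold change of the 23 was -0.10. With 2 exons, 12 of 39 genes were called lower (median -0.32), with 3 exons 8 of 33 (median -0.46), and with 4 or more exons 17 of 45 (median -0.48). Over all exon numbers 27.1% of the -DT genes were called lower, against 3.48% of all genes tested. The counts include the 7 called genes that met the level only through the vehicle group, MIF4GD-DT among them. The Spearman correlation of exon number with log2 fold change was -0.36 over the 140 genes, that of exon number with mean TPM was 0.07, and that of transcript length with log2 fold change was -0.04. These are descriptions across genes measured in the same libraries. The other 1226 long noncoding genes tested had medians of -0.16 with 1 exon, -0.28 with 2, -0.40 with 3 and -0.31 with 4 or more, and a Spearman correlation of -0.17. Of these other genes, 6.79%, 17.4%, 24.1% and 22.9% were called lower in the same order of exon number. The differences between the -DT genes and the others were not tested.

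**Figure D4:**
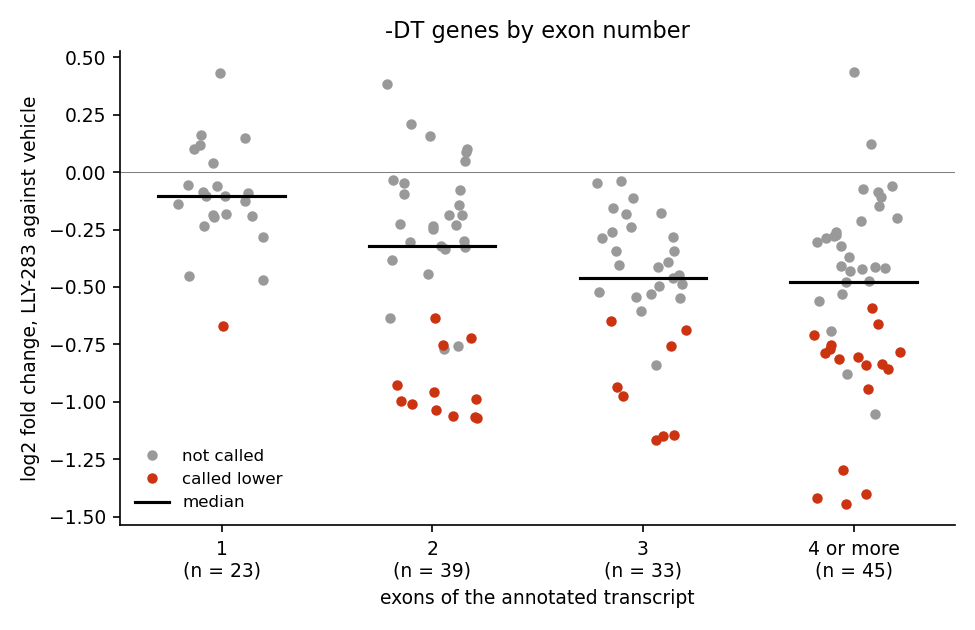
Log2 fold change of LLY-283 against vehicle (vertical axis) for the 140 -DT genes, grouped by the number of exons of the annotated transcript, with genes called lower in red and a bar at each median. The medians are -0.10, -0.32, -0.46 and -0.48, and 1 of the 23 single-exon genes was called lower.

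Whether the counting used the strand is not stated, so exons shared with a coding gene matter for what a -DT value holds. In GENCODE 44, 77 members share no exon bases with a coding gene, 58 overlap a coding exon on the opposite strand and 5 overlap one on the same strand (GARS1-DT, EOLA1-DT, RBM33-DT, MAP4K3-DT and ZNF582-DT). Among the 77 genes with no shared exon, which include ARNT2-DT, SRP14-DT, SP2-DT, TMEM11-DT, USP46-DT, PCMTD1-DT, RAB30-DT and CNN3-DT, 15 were called lower (19.5%) and the median log2 fold change was -0.28. Among the 58 with an exon on the opposite strand, 20 were called lower (34.5%), with a median of -0.45. Over all -DT genes the share called lower was 27.1%, and over all genes tested it was 3.48%. An exon of the partner itself is overlapped by 40 members, CD44-DT, RELA-DT, TMEM161B-DT and EOLA2-DT among them. Of these 40, 18 were called lower (45.0%, against the same 27.1% and 3.48%). The 18 include KDM2B-DT, ZNF747-DT and SEPTIN7-DT, which met the level only through the vehicle group. None of the partners of CD44-DT, RELA-DT, TMEM161B-DT and EOLA2-DT was called lower, and their log2 fold changes were 0.11, 0.14, -0.05 and 0.29. PGLS-DT, ANKRD42-DT and NCK1-DT, also among the 18, had partners with log2 fold changes of -0.36, -0.28 and -0.21. Of these, PGLS passed the adjusted p threshold (adjusted p = 0.000107, limma). The partners named are examples in both directions. The part of shared exons in the -DT values was not tested.

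Other classes of long noncoding genes also held more genes called lower than higher and had negative medians, though most of their members were not called. Genes named as antisense transcripts (-AS) had 84 of 305 called lower (27.5%, close to the 27.1% of the -DT genes) and 1 higher, with a median log2 fold change of -0.41. Intergenic genes (LINC) had 33 of 148 called lower (22.3%) and 3 higher, with a median of -0.27. All long noncoding genes other than the -DT genes, these classes included, had 208 of 1226 called lower (17.0%) and 16 higher, with a median of -0.27. Of 12084 coding genes tested, 213 were called lower (1.76%) and 31 higher, with a median of -0.03. The differences between these classes were not tested.

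Factors known to end or degrade transcripts that start upstream of promoters were listed with the U1 particle, which protects young transcripts. The counts and median of this list mix these roles, and all of its 67 genes were tested. None was called in either direction, where 3.48% of all genes were called lower and 0.394% higher. At an adjusted p under 0.05 alone, 8 were lower and 7 higher (17.6% and 8.61% of all genes), at an unadjusted p under 0.05, 13 and 16 (25.4% and 13.2% of all genes), and the list's median log2 fold change was 0.00. Of 13 exosome and cofactor genes, EXOSC9 rose by 0.35 on the log2 scale (from 43.4 ± 1.98 to 55.1 ± 0.519 TPM, SD, n = 4 each, adjusted p = 0.000316, limma) and EXOSC7 by 0.24, while EXOSC2, EXOSC3 and EXOSC8 fell by 0.14, 0.22 and 0.14. Of 18 cleavage and polyadenylation genes, CSTF3 fell by 0.26 (from 64.7 ± 0.741 to 53.9 ± 2.12 TPM, SD, n = 4 each, adjusted p = 0.000721, limma), PAPOLA by 0.23 and CPSF6 by 0.19, while CSTF1 rose by 0.27. In the cap-binding group NCBP3 fell by 0.27 and ZC3H18 rose by 0.15. Integrator subunits gave 2 increases and 1 decrease among 15, the nuclease XRN2, which helps to end transcription, rose by 0.12, and the 5 genes of the NEXT and PAXT adaptors, the 3 of the U1 particle and the 2 of the restrictor complex did not pass the test. The single genes of this list were picked once their values had been seen.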

How the data were processed

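RNAseq libraries of U251 cells, 4 given vehicle and 4 given LLY-283, were grouped by their labels. The authors trimmed the reads, aligned them to GRCh38 and used RSEM with the annotation of GENCODE release 41. The unit they deposited is TPM, with 2 decimals. Their methods name STAR 2.7.6a and RSEM 1.3.3, whereas the submitters' processing notes list STAR 2.7.0f and RSEM 1.3.1. TPM keeps no depth, a value of 0 cannot be told from one under the detection limit, and whether counting used the strand is not stated.

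From these values, log2(TPM + 0.1) was compared with limma 3.58.1 (lmFit, eBayes with a trend) in R 4.3.3 for 14478 genes averaging at least 1 TPM, without a replicate block, with Benjamini-Hochberg adjustment over all of them. Within-library log2 ratios were tested likewise over 380 pairs of a noncoding and a coding gene, the 139 -DT pairs by name and 241 others whose starts point apart within 1000 bases. Fold changes on this scale understate those of low genes. Positions, exons and partners came from GENCODE release 44 on hg38, which held 14443 of the genes tested by identifier. Start windows came from RefSeq. The scripts were tested on simulated data.

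The members, lists and tests were chosen with earlier results of these data known. Genes with values in the text are the 10 largest decreases and up to 5 increases among calls with groups apart, the 8 highest means, the 3 nearest the level threshold on each side, the 3 largest called ratio changes in each direction, the extreme called partners, the partners of all these, and those said to be named after their values were seen. A gene that this rule selects, with its partner, is not reported here. The alternatives were pseudocounts of 0.5 and 1, other level filters and fold thresholds, quantile and median-of-ratios scaling, a replicate block, pairs with starts within 1000 bases, and each library left out. A restriction to members without shared exons was added after seeing the data.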

Additional observations from a re-analysis of the deposited data

Results flagged for a closer look

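For each of the 44 genes whose values were examined (the -DT genes chosen by rule and their partners), the highest and lowest of the 4 values of each group were compared with the rest by Dixon's ratio at its 95% critical value. Of 88 groups, 6 held a value that stood apart, and chance gives about 1 in 20. All 6 were LLY-283 groups. SRP14-DT was at 1.72 TPM in replicate 2, above 1.25 to 1.29 TPM in the others. TMEM11-DT was at 0.77 TPM in replicate 2, above 0.56 to 0.57 TPM. TMEM161B-DT was at 34.05 TPM in replicate 2, above 31.11 to 31.58 TPM. SP2-DT was at 0.70 TPM in replicate 4, below 1.58 to 1.7 TPM. CNN3 was at 861.54 TPM in replicate 4, above 844.7 to 846.5 TPM, and PRKACB at 35.45 TPM in replicate 1, above 33.27 to 33.63 TPM.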

How the results depend on the processing

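The number of -DT genes called lower, 38 of 140, was 25 with a pseudocount of 1 TPM, where 2.16% of all genes were called lower. It was 21 under quantile normalization, where 1.80% of all genes were called lower and the median of all genes was 0.01. It was 10 of 35 with a filter at 5 TPM (28.6%, against 1.84% of all genes) and 12 with a fold threshold of 2 (8.57%, against 0.78%). For members without a shared exon it was 15 of 77 (19.5%). The number called higher was 1 with no fold threshold and 0 otherwise. The median log2 fold change of -0.38 became -0.27 with a pseudocount of 1 TPM, -0.19 under quantile normalization and -0.28 over the 491 -DT genes above 0. Ratios called lower, 38 of 139, were 23 with a pseudocount of 1 TPM, 23 under quantile normalization, 11 of 33 with the filter at 5 TPM, 14 with a fold threshold of 2 and 18 of 77 without a shared exon. Their median of -0.39 became -0.28, -0.24 and, with no filter over 488 pairs, -0.27. Ratios called higher were 0 with a fold threshold of 2 and 2 with no filter. With 1 library left out, 27 to 35 genes were called lower (against 2.96% to 3.56% of all genes), 32 to 37 ratios lower and 0 to 2 ratios higher. The medians lay between -0.38 and -0.31 for genes. With median-of-ratios scaling, 35 genes were called lower (25%, against 2.88% of all genes). With no filter on low values, 34 of 491 -DT genes (6.92%, against 1.80% of all genes) and 46 of 488 ratios (9.43%) were called lower, smaller shares than the 27.1% and 27.3% above the filter. The number called lower stayed within 1.5 times the reported one under the settings not named here, and where it did not, the cause was not tested beyond the fewer genes that a filter or restriction leaves.

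Replicate numbers are shared by the groups but did not pair the libraries: same-numbered libraries deviated together with correlations of -0.041, 0.032, -0.002 and -0.085. With a replicate block, 32 -DT genes were called lower (22.9%, against 3.2% of all genes) and 0 higher, and 36 ratios were called lower and 1 higher.

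Over 1024 refits of single named genes and ratios, 939 kept direction and side of the threshold, 61 lost significance, 6 gained it and 18 changed sign. None of the values that changed sign had passed the test. With no depth in TPM, counting error in the members near 1 TPM is unknown. Under quantile normalization, log2 fold changes were 0.019 for ARNT2, 0.020 for LHX1-DT, 0.020 for PRKACB-DT, 0.029 for TMEM161B and 0.017 for USP46. ARNT2 was at 0.028 with median-of-ratios scaling. With 1 library left out, the ranges were -0.015 to 0.058 for AJUBA, -0.042 to 0.018 for ARNT2, -0.0031 to 0.090 for EMSY, -0.013 to 0.035 for PRKACB, -0.011 to 0.11 for TMEM11 and -0.11 to 0.033 for TMEM161B. The ratio changes ranged from -0.37 to 0.10 for GPR155-DT and -0.0015 to 0.16 for ZDHHC12-DT.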
